A study of Homo sapiens with 4 samples.

Results

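Non-USP deubiquitinases were examined in IMR-32, an established neuroblastoma cell line with amplified MYCN. Deubiquitinases remove ubiquitin, a small protein that is attached to other proteins and marks many of them for degradation. The members were 33 genes named for the ovarian tumor (OTU), ubiquitin C-terminal hydrolase (UCH), Josephin and JAMM/MPN classes, and they were found by symbol in the deposited count table. All 33 had a row among its 60612 genes, and all 33 passed the filter on low counts that left 17537 genes tested. By class there were 14 OTU genes, 4 UCH genes, 3 Josephin genes and 11 JAMM genes. CYLD was kept as 1 further member on its own, because its catalytic domain has the fold of the USP family although it was listed with the others.

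RNA was sequenced after knockdown of NeuroD1, a transcription factor of neural development, to ask how it promotes the growth of these cells. Cells were stably transduced with a hairpin that doxycycline induces, either a control hairpin (shControl, 2 libraries, genotype field "WT") or one against NeuroD1 (shNeuroD1, 2 libraries). Both groups received doxycycline at 1 µg/mL for 48 h. The labels did not say whether libraries of a group were separate cultures or clones. The names of the shNeuroD1 libraries end like those of 2 NeuroD1 hairpins of the study, but its own table of the same read counts lists both under 1 hairpin. So p-values measure the spread between these libraries, which may be technical.

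Most OTU, UCH and Josephin enzymes use an active-site cysteine to cut the bond between ubiquitin and its target, whereas JAMM enzymes use a bound zinc ion. Many JAMM proteins act only inside large assemblies. PSMD14 works in the lid of the proteasome, COPS5 in the COP9 signalosome, and BRCC3 in the BRCA1-A and BRISC complexes. COPS6, PSMD7, EIF3F and EIF3H carry the same MPN fold but are widely regarded as structural subunits, and COPS6 and PSMD7 lack the zinc-binding residues. In neurons UCHL1 is among the most abundant proteins.

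Windows around transcript starts were read because NeuroD1 binds E-boxes. They are shown for BRCC3, YOD1 and UCHL5, which fell most, and for OTUD5 and COPS6, which rose most. UCHL1, the most abundant member by counts per exon length, is also shown, although it rose less than OTUB2 and OTUD7A. The OTUB2 window, not printed, held CAAATG at -103 and CACGTG at -74. Windows of 300 bases, from 250 before to 50 after a start, were taken from RefSeq (GRCh38.p14), and 24 of the 33 members matched by symbol with 33 windows in all. An E-box was counted as CANNTG, which reads the same on both strands. The BRCC3 window (chrX:155071258-155071557, plus strand) held CAGGTG at position -244, CAAGTG at -20 and CAGGTG at 30, counted from the start. The YOD1 window (chr1:207051159-207051458, minus strand) held CAAGTG at -241. The UCHL5 window (chr1:193059311-193059610, minus strand), 1 of 3 for that gene, held CAGGTG at -55 and CAGCTG at 40. A further UCHL5 window, not printed (chr1:193059461-193059760), held no CANNTG. Another, also not printed (chr1:193060027-193060326), held CAAATG at -245 and CATTTG at -220. The UCHL1 window (chr4:41256678-41256977, plus strand) held CATCTG at -115. The COPS6 window (chr7:100088719-100089018, plus strand) and the OTUD5 window (chrX:48957558-48957857, minus strand; 1 of 2) held no CANNTG. E-boxes are in capitals, and the first 3 genes were lower and the last 3 higher in shNeuroD1.
BRCC3: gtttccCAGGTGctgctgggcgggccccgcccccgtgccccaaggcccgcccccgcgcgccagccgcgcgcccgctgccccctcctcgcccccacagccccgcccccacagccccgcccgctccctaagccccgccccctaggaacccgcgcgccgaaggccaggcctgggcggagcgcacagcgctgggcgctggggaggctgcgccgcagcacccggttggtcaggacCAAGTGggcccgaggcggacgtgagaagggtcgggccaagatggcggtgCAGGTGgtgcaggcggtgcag
YOD1: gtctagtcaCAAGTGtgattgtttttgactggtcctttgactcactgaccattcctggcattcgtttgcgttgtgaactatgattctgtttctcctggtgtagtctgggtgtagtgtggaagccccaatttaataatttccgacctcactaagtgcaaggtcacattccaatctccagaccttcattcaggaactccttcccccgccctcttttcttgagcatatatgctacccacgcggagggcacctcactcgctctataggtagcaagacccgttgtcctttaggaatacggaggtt
UCHL5: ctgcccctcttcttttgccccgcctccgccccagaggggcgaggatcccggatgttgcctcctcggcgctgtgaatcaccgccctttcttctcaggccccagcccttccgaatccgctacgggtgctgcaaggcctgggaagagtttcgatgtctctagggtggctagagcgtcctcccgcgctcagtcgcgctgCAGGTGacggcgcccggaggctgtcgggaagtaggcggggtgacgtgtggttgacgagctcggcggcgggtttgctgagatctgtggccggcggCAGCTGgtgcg
UCHL1: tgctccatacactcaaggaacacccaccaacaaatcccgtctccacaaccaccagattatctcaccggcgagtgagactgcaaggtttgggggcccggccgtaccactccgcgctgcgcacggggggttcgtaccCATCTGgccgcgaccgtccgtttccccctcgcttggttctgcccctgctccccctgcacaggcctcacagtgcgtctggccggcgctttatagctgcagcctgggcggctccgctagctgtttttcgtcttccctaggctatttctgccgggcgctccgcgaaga
COPS6: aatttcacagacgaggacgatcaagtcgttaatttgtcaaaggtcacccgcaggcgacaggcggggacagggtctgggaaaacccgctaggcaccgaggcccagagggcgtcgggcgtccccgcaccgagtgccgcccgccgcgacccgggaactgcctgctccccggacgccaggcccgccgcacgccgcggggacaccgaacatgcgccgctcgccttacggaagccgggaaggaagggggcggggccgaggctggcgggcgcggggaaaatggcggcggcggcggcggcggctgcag
OTUD5: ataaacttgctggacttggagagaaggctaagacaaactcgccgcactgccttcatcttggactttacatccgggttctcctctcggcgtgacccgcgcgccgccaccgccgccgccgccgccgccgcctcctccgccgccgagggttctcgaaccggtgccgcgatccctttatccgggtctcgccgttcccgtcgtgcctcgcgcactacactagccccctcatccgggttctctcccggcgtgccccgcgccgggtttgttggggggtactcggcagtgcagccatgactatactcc

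CANNTG occurred in 22 of the 33 member windows (66.7%), beside 68.7% of all 35116 windows. CAGATG or its reverse complement CATCTG, which NeuroD1 is known to bind, was found in 2 member windows (6.06%), those of STAMBPL1 and UCHL1, beside 14.7% of all windows. CAGCTG was found in 3 (9.09%; OTUD4, OTULIN and UCHL5) beside 17.9%. CACGTG, the E-box of the MYC family, was found in 5 (15.2%; EIF3F, OTUB2, OTUD1, OTULIN and TNFAIP3) beside 7.26%. These 3 motifs are each also counted within CANNTG. The matches describe letters in these windows and not binding.

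NEUROD1 was checked first. In CPM (counts scaled to library size after TMM normalization) it stood at 418.9 and 414.5 with the control hairpin and at 63.7 and 58.2 with the NeuroD1 hairpin. The log2 fold change was -2.77 (SE 0.05, adjusted p = 8.59e-29 in edgeR). In such bulk samples, fewer cells of a type and less RNA per cell cannot be told apart. The libraries held 14665210 to 16482463 counts. The 11 neuroblastoma markers reported here passed the filter (3 lower and 6 higher). Their log2 fold changes ran from -1.01 to 2.48 with a median of 0.31. Past a fold change of 1.5, 2 were lower and 4 higher. Within that range GATA3 rose by 0.57 and CHGA by 0.75 on the log2 scale, whereas ISL1 fell by 0.63 and HAND2 by 0.13. None of the 4 immune markers reported here passed, and CD3E was at 0 in each library. Fibroblast markers summed to 36.3 to 49.4 CPM (4 of 6 passed, with COL1A1 most of the sum and COL1A2 and DCN not passing), Schwann cell markers to 5.42 to 10.1 CPM (4 of 5 passed) and epithelial markers to 0.0678 to 1.84 CPM (1 of 5 passed). The fibroblast sum was lower in shNeuroD1 through COL1A1 (log2 fold change -0.94), whereas the other 3 tested fibroblast markers, COL3A1, LUM and PDGFRB, were called higher (median of the 4 tested 1.13). Schwann cell and epithelial sums were higher in shNeuroD1, and the part of these markers in the results was not tested. The share of mitochondrial counts was 4.37% and 4.59% against 5.39% and 5.51%, and its part was not tested either.

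In shNeuroD1, 12 members were lower, 6 were higher and 15 were not called at an adjusted p under 0.05 (edgeR quasi-likelihood test, Benjamini-Hochberg over all genes tested). These 18 calls were 54.5% of the members, and 55% of all genes tested were called. In all genes tested 28.2% were called lower and 26.8% higher. Of the 12080 genes at or above a mean of 5 CPM, 36.5% were called lower and 27.3% higher. The members' count of calls was thus close to the background. As in the genes at or above 5 CPM, more members were lower than higher. That balance turned with library size alone as the scaling (8 lower and 10 higher, median -0.021), and without either shControl library 3 members were higher. The members' median log2 fold change was -0.13, beside 0.01 over all genes tested and -0.05 over those at or above 5 CPM. A negative value was found in 23 of 33 members. Past a fold change of 1.5 there were 2 lower members, BRCC3 and YOD1 (background 10.6%), and 1 higher member, OTUD5 (background 15%), and past a log2 fold change of 1 there was BRCC3 alone (background 5.14% lower and 8.79% higher). CPM did not overlap between the groups in 19 members that were lower and 8 that were higher in shNeuroD1 (background 37.7% and 38.4%). DESeq2 called 13 members, 10 lower and 3 higher, and 39.7% of all genes tested. The share called rose with the level: 1 of 5 members with a mean of 1 to 10 CPM was called (background 41.6%), 12 of 21 with 10 to 100 CPM (62.9%), and 5 of 7 with 100 to 1000 CPM (74.6%).

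**Figure D1:**
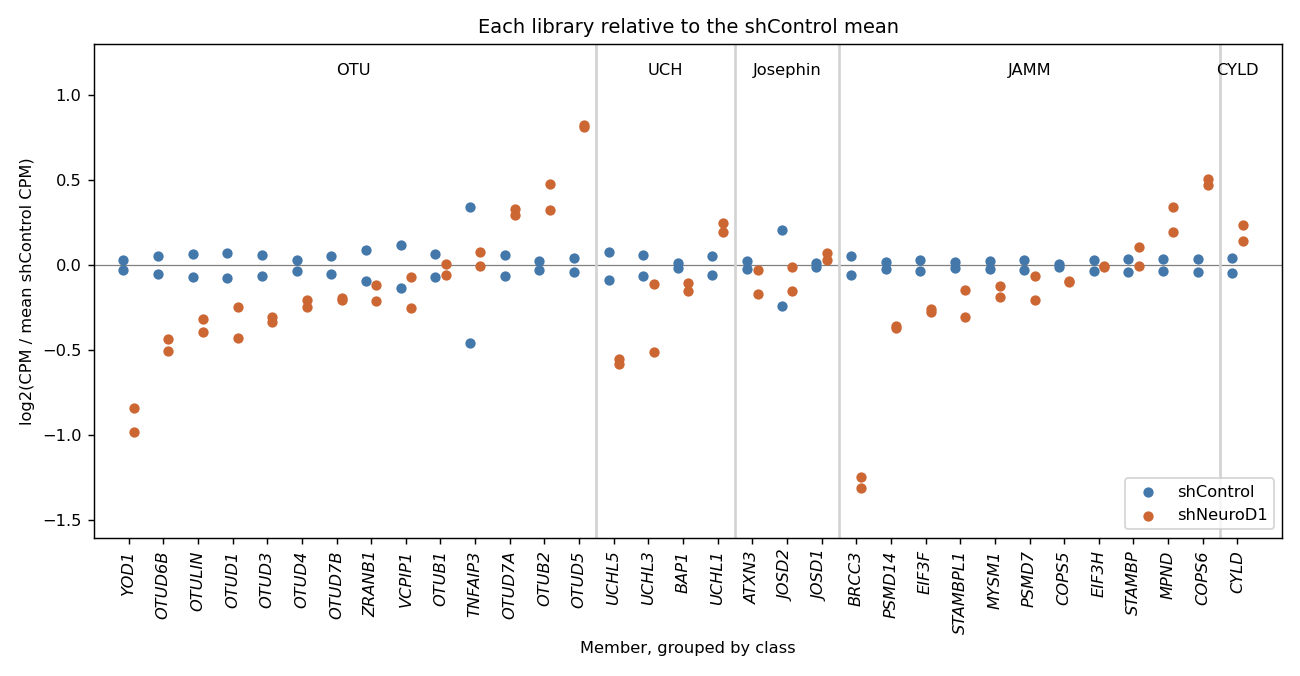
Each point is 1 library, as the log2 ratio of its CPM to the mean shControl CPM (vertical axis), for the 33 members grouped by class and ordered by log2 fold change (horizontal axis); blue is shControl and orange shNeuroD1. Both shNeuroD1 points of BRCC3 and YOD1 lie below and those of OTUD5 and COPS6 above the shControl points, and TNFAIP3, with 13 to 21 counts, has the widest shControl spread.

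Per length, UCHL1 stood at the top of the members with 191 CPM per kb of merged exons in shControl (SD 10.9, n = 2), followed by EIF3H with 45.7 and COPS6 with 25.04. BAP1 (22.3), EIF3F (22.2), MYSM1 (20.8), PSMD7 (19.9) and UCHL5 (19.5) followed, and neighbours in this run lay within or close to their spread. At the bottom were OTUB2 (1.63), OTUD7A (1.19), OTUD1 (0.904) and TNFAIP3 (0.222). By counts per length the level of UCHL1 was thus several times that of any other member in both groups. The deposited FPKM values, summed over the starts listed for each gene, did not show this gap. OTUB1 had 196 and 189 FPKM in shControl and 171 and 159 in shNeuroD1. UCHL1 had 37.5 and 151 FPKM in shControl and 144 and 191 in shNeuroD1. The assembly behind the FPKM values could merge OTUB1 with the locus before it. A20, the product of TNFAIP3, had little RNA in these cells.

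**Figure D2:**
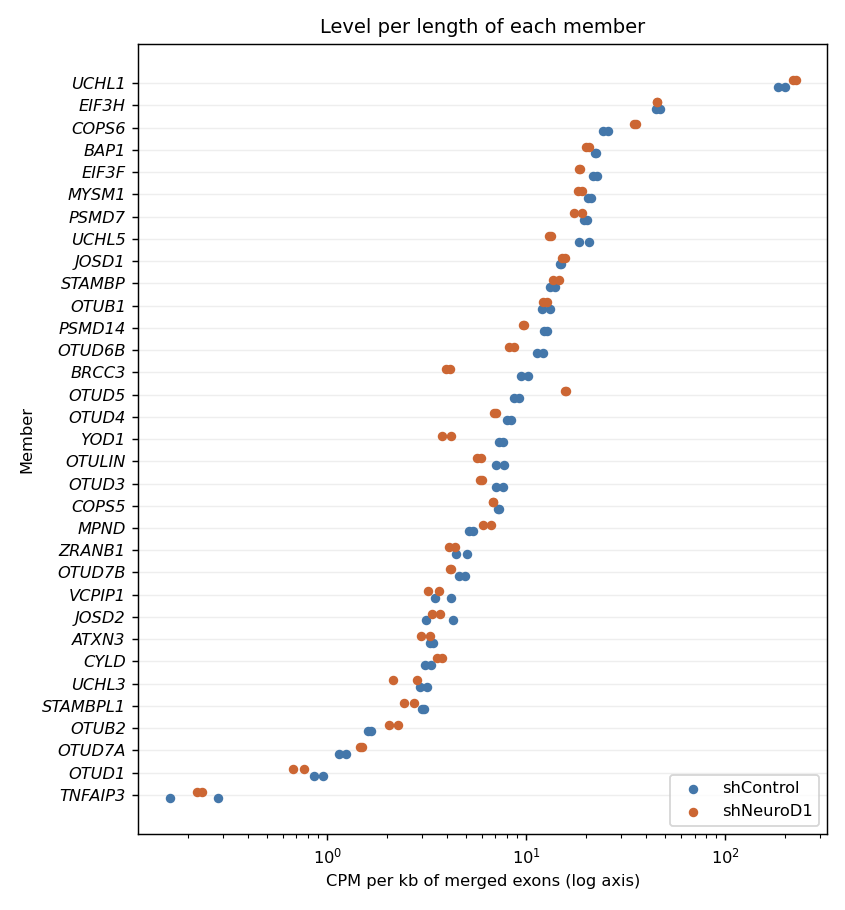
CPM per kb of merged exons (horizontal log axis) for each member (vertical axis, ordered by the shControl mean), with 1 point per library, blue for shControl and orange for shNeuroD1. UCHL1 lies near 191 to 223, above every other member, and TNFAIP3 near 0.222 to 0.228.

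Among the OTU genes, 6 were lower and 3 higher, with a median of -0.18. YOD1, a partner of the p97 segregase, fell most of this class: it had 47.6 and 49.6 CPM in shControl and 27.1 and 24.7 in shNeuroD1. Its groups did not overlap and lay far apart beside the spread within each. The log2 fold change was -0.91 (SE 0.08, adjusted p = 8.89e-12), and the sole tested neighbour within 250 kb, PFKFB2, which overlaps YOD1 on the opposite strand in 4.83% of its exon bases, had 0.26 (adjusted p = 0.0991).

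OTUD5, a deubiquitinase with roles in development and innate immune signalling, rose most of all members. It had 33.0 and 31.1 CPM in shControl and 56.7 and 56.3 in shNeuroD1. The shNeuroD1 values were nearly equal and both well above shControl, which gave a log2 fold change of 0.82 (SE 0.07, adjusted p = 1.13e-11).

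The remaining OTU changes were smaller. OTUD6B had -0.47 (SE 0.07, adjusted p = 2.2e-06), OTULIN, which cuts linear ubiquitin chains, had -0.35 (SE 0.07, adjusted p = 2.47e-05), and OTUD3 had -0.32 (SE 0.07, adjusted p = 0.000268). OTUD4 fell by 0.22 and OTUD7B, also named Cezanne and selective for K11-linked chains, fell by 0.20 on the log2 scale. The paralog OTUD7A rose by 0.31, and OTUB2 rose by 0.40 from 7.06 and 6.80 to 9.66 and 8.67 CPM. Exon bases of OTUB2 overlap DDX24 on the opposite strand (15.1%), and those of OTUB1 overlap AP000721.1 on the same strand (7.20%). Of 10 other settings on the counts, the call was lost in 5 for OTUB2, in 4 for OTUD7A and in 5 for OTUD7B, DESeq2 included for each. The estimates thus differed between the paralogs of each pair. Counts of OTUB2 per count of OTUB1 were 0.1003 and 0.106 in shControl and 0.143 and 0.134 in shNeuroD1. Counts of OTUD7A per count of OTUD7B were 0.319 and 0.273 against 0.427 and 0.413. Such ratios need no scaling between libraries, and in neither pair did the groups overlap. No background was computed for ratios, and non-overlap was common in CPM (37.7% of all genes tested lower and 38.4% higher).

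OTUB1, ZRANB1, VCPIP1, OTUD1 and TNFAIP3 were not called. OTUB1, an abundant enzyme of K48-linked chains, had a log2 fold change of -0.02 (95% confidence interval -0.14 to 0.10). ZRANB1 had -0.17 (interval -0.34 to 0.01), but 64.1% of its exon bases are shared with AL731577.2 on the same strand or CTBP2 on the opposite strand, so its count is uncertain. VCPIP1, another p97 partner, had -0.16 (-0.33 to 0.01). OTUD1 (-0.33, interval -0.88 to 0.22) and TNFAIP3 (0.05, interval -0.76 to 0.85) rested on 30 to 41 and 13 to 21 counts per library, and their intervals are wide.

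Among the UCH genes, UCHL5 and BAP1 were lower, UCHL1 was higher and UCHL3 was not called (median -0.21). UCHL5, which acts on the proteasome and in the INO80 chromatin remodeler, had 137 and 122 CPM in shControl and 86.7 and 88.4 in shNeuroD1. Every shNeuroD1 value was below every shControl value by more than the spread within a group. The log2 fold change was -0.57 (SE 0.06, adjusted p = 2.06e-10).

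UCHL1 had 453 and 418 CPM in shControl and 517 and 500 in shNeuroD1. The groups were apart, although the gap was not much wider than the distance between the shControl libraries. The log2 fold change was 0.22 (SE 0.04, adjusted p = 4.67e-05), and 5.92% of its exon bases overlap the antisense gene UCHL1-AS1. BAP1, the nuclear enzyme that removes ubiquitin from histone H2A, had -0.13 (SE 0.05, adjusted p = 0.034). Its call was lost in 8 of 10 other settings on the counts. UCHL3, with 62 to 96 counts per library, had -0.30 (interval -0.68 to 0.08), and 37.2% of its exon bases are shared with other annotated genes.

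No Josephin gene was called. ATXN3, the ataxin-3 gene, had 31.6 and 32.7 CPM in shControl and 28.6 and 31.6 in shNeuroD1. The groups nearly met at 31.6, and the log2 fold change was -0.10 (interval -0.26 to 0.06, edgeR adjusted p = 0.336). JOSD1 had 64.5 and 63.5 against 65.4 and 67.3 CPM, which lay close together, with 0.05 (interval -0.06 to 0.17). JOSD2, with 70 to 103 counts per library, had -0.08 (interval -0.46 to 0.29).

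Among the JAMM genes, 4 were lower (BRCC3, PSMD14, EIF3F and MYSM1) and COPS6 was higher, with a median of -0.13. BRCC3, which cuts K63-linked ubiquitin chains, fell most of all members: it had 32.5 and 30.0 CPM in shControl and 12.6 and 13.2 in shNeuroD1. Its level in shNeuroD1 was 41.3% of that in shControl, and neither group came near the other. The log2 fold change was -1.27 (SE 0.10, adjusted p = 1.17e-12).

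COPS6 had 72.1 and 68.5 CPM in shControl and 100 and 97.3 in shNeuroD1. The groups stood well apart, and the log2 fold change was 0.49 (SE 0.06, adjusted p = 4.64e-09). COPS5, which carries the isopeptidase activity of the same complex, had -0.09 (SE 0.06, adjusted p = 0.207). There were thus 1.27 and 1.22 counts of COPS6 per count of COPS5 in shControl and 1.899 and 1.84 in shNeuroD1.

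PSMD14, the deubiquitinase of the proteasome lid, fell by 0.36 (SE 0.05, adjusted p = 9.7e-07), while its partner PSMD7 had -0.13 (SE 0.07, adjusted p = 0.0902) with 30.7% of its exon bases overlapping a transcript on the opposite strand. EIF3F fell by 0.26 (SE 0.05, adjusted p = 8.31e-06), and EIF3H, the other MPN subunit of the initiation factor eIF3, had -0.01 (interval -0.09 to 0.08). The count ratio of EIF3F to EIF3H went from 0.711 and 0.710 to 0.599 and 0.589. Reads of EIF3F may be shared with the pseudogene EIF3FP3, which had 160 to 204 counts per library beside 2630 to 3242 of EIF3F. MYSM1, a histone H2A deubiquitinase, fell by 0.16 (SE 0.05, adjusted p = 0.00491). STAMBP, an endosomal enzyme, had 0.05 (interval -0.05 to 0.16). Its paralog STAMBPL1 had -0.22 (adjusted p = 0.0787), and MPND, with 23.2% of its exon bases under antisense genes, had 0.27 (adjusted p = 0.0771).

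CYLD, a suppressor of NF-κB signalling that cuts K63-linked and linear chains, had 40.3 and 42.9 CPM in shControl and 45.9 and 49.0 in shNeuroD1. The groups did not overlap, and the log2 fold change was 0.19 (SE 0.07, adjusted p = 0.0232). The call was lost in 5 of 10 other settings on the counts. OTULIN and CYLD, which both act on linear ubiquitin, thus moved in opposite directions.

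Of the 18 calls, 11 held in each of the 10 other settings on the counts: BRCC3, YOD1, UCHL5, OTUD6B, PSMD14, OTULIN, OTUD3 and EIF3F lower, and OTUD5, COPS6 and UCHL1 higher. The other 7 calls (OTUD4, OTUD7A, OTUD7B, OTUB2, BAP1, MYSM1 and CYLD) were lost in at least 1. These 10 settings did not include the stricter glmTreat against a fold change of 1.2, which called 5 members lower and 2 higher.

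The partners of the members showed how far a change was shared within an assembly. The counts of each list below stand beside 28.2% lower and 26.8% higher in all genes tested. Among genes at or above a mean of 5 CPM these shares were 36.5% and 27.3%. For BRCC3, 4 of 8 partners were lower and 1 higher. BRCA1, the E3 ligase of the BRCA1-A complex, had 252 and 266 CPM against 109 and 108, so its log2 fold change was -1.25 (SE 0.05, adjusted p = 9.98e-21). BARD1, its heterodimer partner, had -1.50 (SE 0.11), and SHMT2, the serine hydroxymethyltransferase that joins the BRISC complex, had -1.64 (SE 0.05). The scaffold ABRAXAS1 fell by 0.43, ABRAXAS2 and BABAM1 had -0.02 and 0.02, and BABAM2 rose by 0.31 (SE 0.09, adjusted p = 0.00533). Within the complexes the count ratio of BRCC3 to BABAM2 went from 1.51 and 1.43 down to 0.507 and 0.473, whereas its ratio to BRCA1 was 0.129 and 0.113 against 0.115 and 0.122, with overlapping groups.

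**Figure D3:**
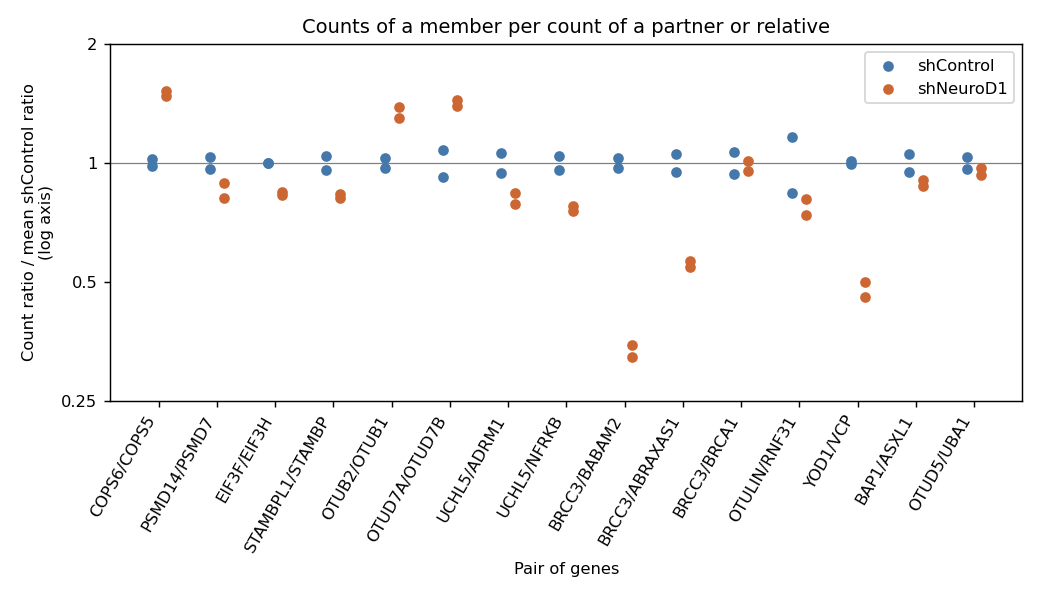
Counts of a member divided by counts of a partner or paralog in the same library, relative to the mean shControl ratio (vertical log axis), for 15 pairs (horizontal axis), with 1 point per library in blue (shControl) or orange (shNeuroD1). BRCC3/BABAM2 falls to 0.334 and YOD1/VCP to 0.479 of the shControl mean, COPS6/COPS5 rises to 1.499, and BRCC3/BRCA1 and OTUD5/UBA1 overlap between groups.

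Of the other 17 subunits of the proteasome's 19S particle, 14 were lower and 1 was higher, with a median of -0.26, beside 28.2% and 26.8% of all genes tested. The ATPase subunit PSMC3 fell most, from 140 and 142 to 83.0 and 79.3 CPM (log2 fold change -0.80, SE 0.05, adjusted p = 9.99e-15), and PSMC6 and PSMD12 fell by 0.41 and 0.38. PSMD14 fell by 0.36, beside that median of -0.26, and the difference was not tested. SEM1 was the subunit that rose (0.35, adjusted p = 6.21e-06). The count ratio of UCHL5 to ADRM1, which docks it on the proteasome, did not overlap between the groups: there were 2.49 and 2.22 counts of UCHL5 per count of ADRM1 in shControl and 1.85 and 1.98 in shNeuroD1. In the INO80 list 4 of 12 subunits were lower and 1 higher (median -0.08, from -0.14 without shControl replicate 2 to -0.050 without shNeuroD1 replicate 2, -0.055 without shControl replicate 1 and 0.028 with library size alone), with INO80E (-0.40) and MCRS1 (-0.24) lower and ACTR8 (0.20) higher. In fits of the deposited FPKM values INO80E had the opposite sign (0.32 and 0.35), as did COPS2, EIF3K, FAF2, UBE2D3 and HCFC1 below at up to 0.14.

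In the COP9 signalosome 4 of the 8 other subunits were lower and 2 higher (median -0.19, or -0.11 without shControl replicate 1). COPS3 fell by 0.46 and COPS2 by 0.30, while COPS7A and COPS8 rose by 0.19 and 0.16, so the estimate for COPS6 was above that of each other subunit listed, a difference that was not tested. In eIF3, 5 of 11 other subunits were lower and none was called higher (median -0.10), with EIF3E at -0.33, EIF3K at -0.24 and EIF3A at -0.18 (adjusted p = 4.21e-08, 0.000216 and 0.000422 in edgeR). For p97 and its cofactors, 7 of 12 were lower and 1 was higher (median -0.18). VCP itself, which encodes p97, rose by 0.16 while the cofactors FAF2, UFD1 and UBXN2A fell by 0.53, 0.31 and 0.29. YOD1 therefore had 0.151 and 0.154 counts per count of VCP in shControl and 0.0763 and 0.0696 in shNeuroD1.

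The ubiquitin genes and the activating (E1) and conjugating (E2) enzymes had 9 of 14 lower and 1 higher (median -0.17). UBE2V1 and UBE2D3 fell by 0.40 and 0.31. UBA1, the main E1 enzyme, rose from 242 and 245 to 461 and 439 CPM (log2 fold change 0.89, SE 0.04, adjusted p = 5.68e-18). Of the partners of BAP1, 2 of 10 were lower (KDM1B -0.21 and HCFC1 -0.19) and FOXK1 was higher (0.29). In the linear ubiquitin and A20 list 1 of 10 was lower (TAX1BP1, -0.47) and 2 were higher (SPATA2, 0.29, which bridges CYLD to the linear chain assembly complex, and RNF11, 0.18). Of the endosomal partners of STAMBP, 2 of 7 were lower (STAM, -0.47, most of all) and 2 higher (PTPN23, 0.25, and CHMP1B, 0.17).

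Related deubiquitinases that were not among the members were also read, of which 8 of 10 passed the filter, with 3 lower and 2 higher. OTULINL, a pseudoenzyme related to OTULIN, fell from 17.6 and 21.5 to 7.76 and 8.67 CPM (-1.25, SE 0.13, adjusted p = 9.87e-10). MINDY1 and MINDY4, of the class that prefers K48-linked chains, rose by 0.63 and 1.04. OTUD6A and ATXN3L had 0 counts in each library. Over all 11 lists 55 of 117 genes were lower and 14 higher, with a median of -0.12. All genes tested had 28.2% lower, 26.8% higher and a median of 0.01. Genes at or above a mean of 5 CPM had 36.5% lower, 27.3% higher and a median of -0.05.

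**Figure D4:**
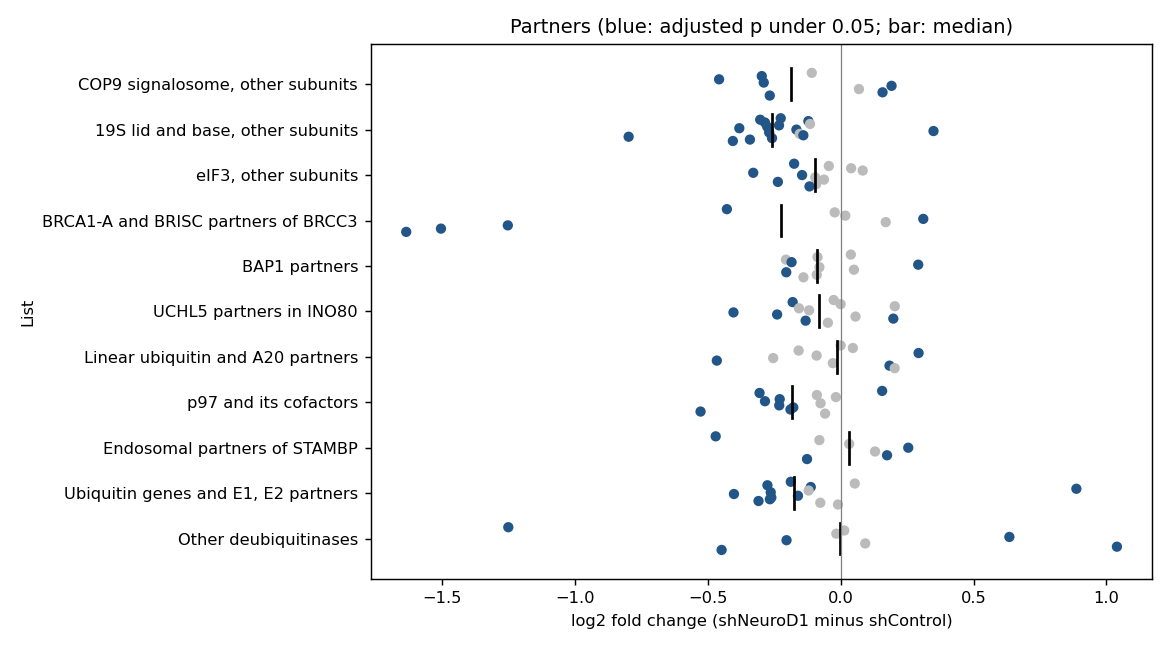
Log2 fold change (horizontal axis) of each tested gene in 11 lists of partners and related enzymes (vertical axis), blue where the adjusted p was under 0.05 and grey where not, with a bar at the list's median. The 19S list lies mostly left of 0, with a median of -0.26, and BRCA1, BARD1 and SHMT2 stand apart at the left of the BRCC3 list.

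The members with the largest rises lay in stretches of chromosome where most other genes were higher too, a pattern chosen for description after the values were seen. OTUD5 lies on the short arm of the X chromosome (chrX:48922028-48958386, minus strand, GENCODE 29 on GRCh38). Of 20 other genes tested within 250 kb of it, 17 were higher and none was lower at an adjusted p under 0.05 in edgeR, with a median log2 fold change of 0.83. Examples are HDAC6 (0.75), TFE3 (0.77) and SYP (0.81). Within 2 Mb and at or above a mean of 5 CPM, 41 of 43 neighbours were higher and none was lower. Their median was 0.77, so OTUD5 differed from its neighbours by 0.05.

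The shift was not limited to that window. Of 166 genes at or above a mean of 5 CPM that lie before position 60 Mb of the X chromosome, 138 were higher and 9 lower (83.1% and 5.42%, median 0.65). Of 244 genes beyond that position, 61 were higher and 90 lower (median -0.06). On chromosome 7 the median was 0.27 over 591 genes, and 0.34 over the 395 beyond 60 Mb, of which 260 were higher and 45 lower. The other chromosomes had medians of -0.15 to 0.05. Both shNeuroD1 libraries carried the shift: the median of the genes before 60 Mb of the X chromosome was 0.67 and 0.62 above the shControl mean on the log2 scale, and the shControl libraries themselves lay at -0.01 and 0.01.

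COPS6 lies on chromosome 7 (chr7:100088954-100092200, plus strand), where 50 of 65 neighbours within 2 Mb were higher and 2 lower. Their median was 0.43, and COPS6 differed from it by 0.06. UBA1 lies in the same part of the X chromosome as OTUD5, and counts of OTUD5 per count of UBA1 went from 0.136 and 0.127 to 0.123 and 0.128, with overlapping groups. Of the 11 tested partners on chromosomes 7 and X, 4 were higher (UBA1 and, on chromosome 7, SEM1, FOXK1 and MINDY4) and 3 lower (TAX1BP1 and PSMC2 on chromosome 7 and HCFC1 on the X chromosome). DNA was not measured here, so a change in the number of copies of these stretches and a change in the transcription of their genes cannot be told apart.

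Of all members, BRCC3, YOD1 and MYSM1 lay furthest below the median of the genes around them. BRCC3 lies at the far end of the long arm of the X chromosome (chrX:155071420-155123074, plus strand), where 39 neighbours within 2 Mb had a median of -0.04, from which BRCC3 differed by -1.23. Within 250 kb, 2 of 8 genes tested were lower (FUNDC2, -0.18, and VBP1, -0.28) and none was higher, with a median of -0.23. CMC4, which starts next to BRCC3, had -0.45 (SE 0.32, edgeR adjusted p = 0.246), and MTCP1, whose annotated span covers BRCC3, had -0.66 (SE 0.41, adjusted p = 0.178). YOD1 differed by -0.67 from the median of its 22 neighbours (-0.24) and MYSM1 by -0.63 from that of 6 (0.48). OTUD3, EIF3F and OTUD7B differed by -0.33, -0.27 and -0.24 from the medians of theirs. UCHL5 differed by -0.23 from that of 5 (-0.34), all of them lower. OTUD6B (-0.47) lay close to its neighbours: it differed by -0.09 from the median of 13 (-0.38), of which 8 were lower and 2 higher. UCHL1 had risen against neighbours with a median of -0.37, a difference of 0.60, and OTUB2 and OTUD7A differed by 0.49 and 0.47 from theirs. CYLD and MPND differed by 0.34 and 0.32. A difference beyond 0.3 in size was found in 9 members. With 3 members on chromosomes 7 and X left out, 11 of 30 members were lower and 4 higher. Of 11079 genes at or above a mean of 5 CPM outside these chromosomes, 38.1% were lower and 24.9% higher.

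**Figure D5:**
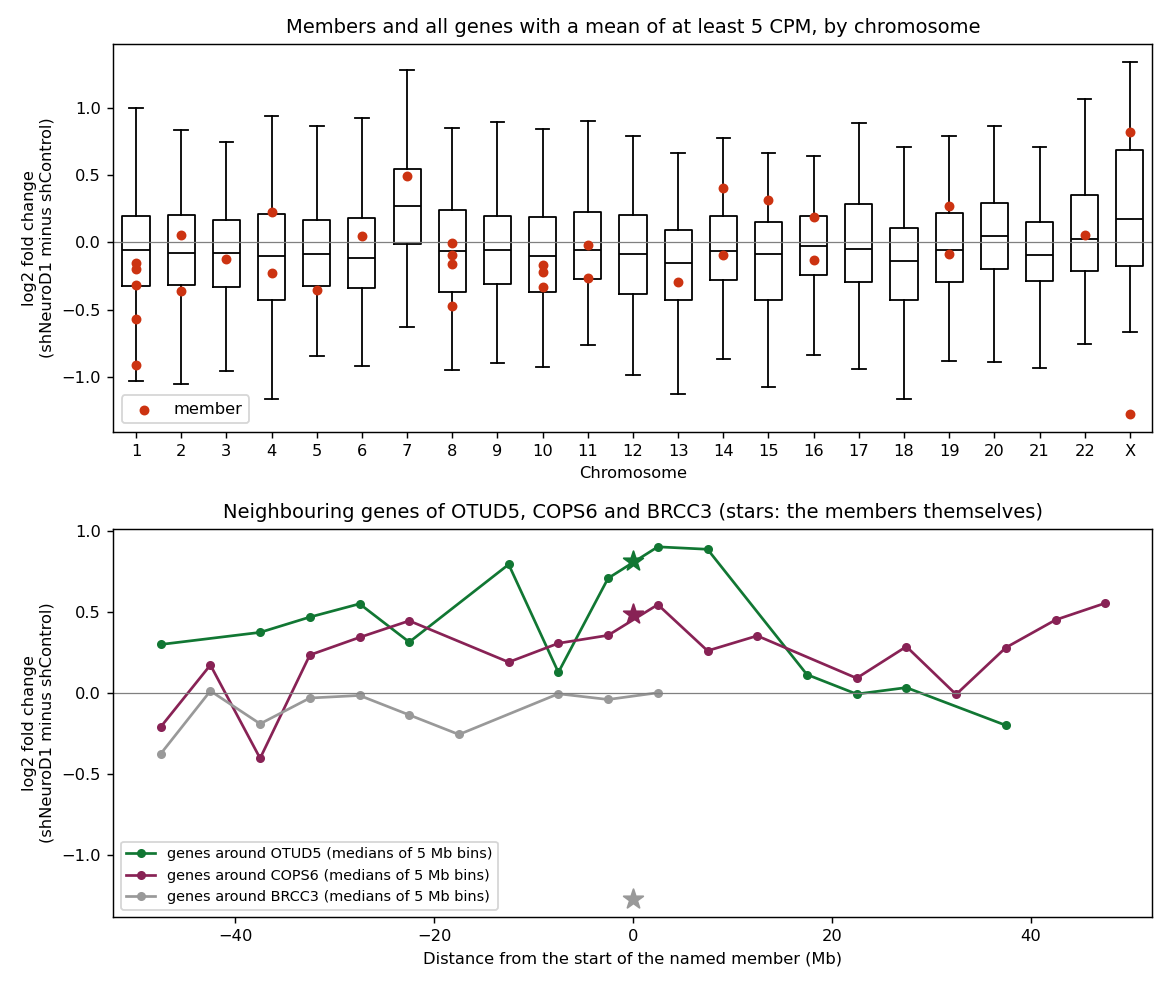
Upper panel, log2 fold change (vertical axis) by chromosome (horizontal axis) for 12080 genes at or above a mean of 5 CPM, with boxes at the quartiles, a line at the median, whiskers at the 5th and 95th percentiles and the members in red. Lower panel, medians of 5 Mb bins of at least 5 genes by distance from the start of OTUD5, COPS6 or BRCC3, with stars for these members: OTUD5 (0.82) and COPS6 (0.49) lie on the line of their neighbours, and BRCC3 (-1.27) lies far below it.

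FPKM values of assembled transcripts, deposited for each library, were read for the use of transcript starts. Of the members 27 had a start listed, and 27 starts of 18 members passed a mean of 1 FPKM for start and gene and were not the sole start. Of these 27, 3 had shares of the gene's FPKM that did not overlap between groups and differed by over 10 percentage points, beside 20.4% of 11799 starts of all genes. In MYSM1 a start within the gene (chr1:58690340-58690394, minus strand, first exon) held 9.92% and 5.24% of the FPKM in shControl and 22.9% and 21.0% in shNeuroD1. Its upstream start (chr1:58699985-58700072) fell from 80.7% and 84.7% to 68.8% and 71.0%. The groups were apart in both. In STAMBP 1 of 3 first exons that begin at the same base (chr2:73828916-73829070) held 44.4% and 32.8% against 54.9% and 49.4%. These exons differ only in their end, so the STAMBP difference is not one of start position. BRCC3 kept 1 main start in each library, with a mean share of 99.3% of its FPKM in shControl and 97.6% in shNeuroD1.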

How the data were processed

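RNAseq libraries of IMR-32 cells (2 shControl, 2 shNeuroD1) were grouped by title. The authors deposited raw read counts per Ensembl gene from paired-end polyA RNA, and the submitters' processing notes and methods name cutadapt 1.9.1, HISAT2 2.0.1, HTSeq 0.6.1, DESeq2 and build hg38. The annotation release and the use of strand in counting are not given in the sources used here, so genes that overlap on either strand are uncertain. The authors also deposited FPKM values of assembled transcript starts per library. These come from an assembly that differed between libraries (UCHL1 summed to 37.5 and 151 FPKM in shControl although its counts agree), could merge OTUB1 with the locus before it, and listed no start for 6 members. The FPKM fits do not hold NEUROD1, whose locus was joined to CERKL. No column of another series was present, and columns of the authors' own comparisons (fold changes and p-values) were not used.

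The members and lists were chosen with earlier results of these data known. 1 gene each of the neuroblastoma and immune marker lists is not reported here, and the summed neuroblastoma level, which needs it, was left out. Gene symbols were found for 60401 of 60612 IDs, and coordinates of 58394 from GENCODE 29. Counts were fitted in edgeR 4.0.16 (R 4.3.3) with filterByExpr (minimum count 10), TMM scaling, glmQLFit and glmQLFTest (two-sided), and Benjamini-Hochberg adjustment over 17537 genes, with calls at an adjusted p under 0.05. Standard errors are the log2 fold change divided by the square root of F, and intervals (95%) cover the spread between libraries only. The fit was also run on counts simulated from its own estimate of the spread. Such counts cannot show whether the scaling or that estimate is right for these libraries. Levels are TMM-scaled CPM, divided by merged exon length where genes are compared. Named were NEUROD1, every member, and up to 3 called genes of each list with the largest change; others were chosen after their values were seen. Values in every library are given for members past a fold change of 1.5 and for the extremes of each class. Alternatives were DESeq2 1.42.0 and its size factors, library size alone, other filters, thresholds and glmTreat, a replicate block, limma 3.58.1 on log2(FPKM + 1) and log2(FPKM + 0.1), leaving out each library, and, added after seeing the data, subtraction of the median of genes within 2 Mb and leaving out members on chromosomes 7 and X.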

Additional observations from a re-analysis of the deposited data

How the results depend on the processing

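Deviations from the group means of libraries that share a number had a correlation of 0.016 over 17537 genes, so the numbers were not taken as pairs, and with the replicate block 12 members were lower and 6 higher. Without each library in turn, members lower numbered 9 to 11 and members higher 3 to 5 (3 without either shControl library), genes lower 3464 to 4213, genes higher 2828 to 3860, the members' median -0.17 to -0.09 and NEUROD1 -2.84 to -2.71; here the lone library was taken to vary like the other group. Library size alone moved the median of all genes to 0.12 and that of the members to -0.021, with 8 members lower and 10 higher, against 12 and 6. DESeq2 called 10 members lower and 3 higher. Medians of the partner lists moved beyond the spread in 13 values with a library left out (31 did not) and in 34 under other settings (65 did not).

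With a fold change beyond 1.5 there were 2 members lower and 1 higher (1865 and 2631 genes), with a log2 fold change beyond 1 there were 1 and 0 (902 and 1541 genes), and with glmTreat against 1.2-fold 5 and 2 (2794 and 3062 genes). limma on log2(FPKM + 1) gave 1 and 1 members (278 and 246 genes), on log2(FPKM + 0.1) 1 and 1 (257 and 206 genes), and without the filter 0 and 1 (171 and 142 genes). The FPKM fits turned the sign of members and partners, at log2(FPKM + 1), log2(FPKM + 0.1) and without the filter in that order, for ZRANB1 (0.12, 0.15, 0.12), JOSD2 (0.13, 0.29, 0.13), MYSM1 (0.0040, 0.0052, 0.0040), MPND (-0.41, -0.51, -0.41), FAF2 (0.084, 0.089, 0.084), INO80E (0.32, 0.35, 0.32), UBE2D3 (0.038, 0.041, 0.038), COPS2 (0.14, 0.14, 0.14), EIF3K (0.091, 0.092, 0.091) and HCFC1 (0.13, 0.14, 0.13), and without the filter for ATXN3 (0.056); the cause was not tested. Members that were not called also turned under library size alone (OTUB1 0.090, ATXN3 0.016, JOSD2 0.028, COPS5 0.017, EIF3H 0.11), under a mean of at least 1 CPM (EIF3H 0.0072) and with a library left out, where the ranges were -0.099 to 0.033 for OTUB1, -0.048 to 0.016 for EIF3H, -0.32 to 0.48 for TNFAIP3, -0.30 to 0.15 for JOSD2 and -0.0066 to 0.11 for STAMBP. Less the median of genes within 2 Mb, OTUB1 (0.11), OTUD1 (0.059), OTUD4 (0.021), VCPIP1 (0.068), JOSD1 (-0.023), COPS5 (0.12), PSMD7 (0.013) and EIF3H (0.055) turned, of which OTUD4 was a called member. Without members on chromosomes 7 and X the counts were 11 lower and 4 higher. Genes at or above a mean of 5 CPM outside these chromosomes had 38.1% lower and 24.9% higher.

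The direction of BRCC3, YOD1, UCHL5, OTUD5 and COPS6 held in every fit that tested them. Depth limits what can be said of OTUD1, TNFAIP3, UCHL3 and JOSD2, with at most 103 counts per library, and 2 libraries per group limit the estimate of spread for all.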
